A study of Mus musculus with 16 samples.

Results

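The 38 genes described here carry out or answer to the p53 response: Trp53 itself, its inhibitor and family members, genes that p53 switches on, and the proteins of the apoptosis pathways. They were taken by symbol from a list, and all 38 were present among the 31663 gene symbols of the FPKM table (fragments corrected for transcript length and library size). Of these, 36 reached 1 FPKM in at least 2 libraries and were tested. The anti-apoptotic Bcl2 and the p53 relative Trp63 did not.

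There were 16 mouse libraries in 8 groups of 2, each made by Smart-seq2 from a single clone or a single piece of a structure. Assembled structures were grown from a mix of GFP-marked induced pluripotent stem cells (iPSC) and RFP-marked trophectoderm stem cells (TSC, written TSCC in the submitters' protocol), and their green and red parts were taken apart under a stereomicroscope. The groups were the TSC part and the iPSC part of assembled structures (labelled ITS_TSC and ITS_iPSC), each with and without BMP4, and TSC and iPSC grown alone, each with and without BMP4. All 8 groups shared the same medium on 5% Matrigel, with 12.5 ng/ml FGF4 and 500 ng/ml heparin, and were collected on day 3 after 24 hours with or without BMP4. The sources used here do not give the BMP4 dose, the mouse strain or the origin of the lines. Whether a group's 2 libraries came from separate cultures is not stated either, so the p-values cover no more than the spread from library to library.

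The p53 protein is a transcription factor that is held low by the ubiquitin ligase Mdm2, and stress such as DNA damage releases it to activate genes for cell cycle arrest, repair and cell death. In the mitochondrial route to apoptosis, BH3-only proteins such as Puma (Bbc3) and Noxa (Pmaip1) counter the protective Bcl2 relatives, so that Bax and Bak1 open the outer mitochondrial membrane. Cytochrome c (Cycs) then leaves and joins Apaf1 and caspase 9, while inhibitor of apoptosis proteins restrain the caspases. Pluripotent stem cells are known to sit close to the threshold of this route.

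The groups were separated by their marker genes with exceptions. Pou5f1, the central factor of pluripotency, lay at 0.0335 to 13.2 FPKM in the 8 TSC-origin libraries and 49.5 to 326 FPKM in the 8 iPSC-origin libraries. Elf5, a factor of trophoblast stem cells, lay at 5.51 to 224 FPKM in TSC-origin and 0 to 50.4 FPKM in iPSC-origin libraries. The trophoblast stem cell factor Cdx2 overlapped, at 0 to 6.24 FPKM in TSC-origin and 0.245 to 6.16 FPKM in iPSC-origin libraries. Some libraries carried markers of the other lineage: replicate 2 of assembled TSC without BMP4 had 13.2 FPKM of Pou5f1 and 22.5 FPKM of Tdgf1, an epiblast co-receptor, and replicate 2 of assembled iPSC with BMP4 had 50.4 FPKM of Elf5. These 2 libraries are meant below by both libraries that carry markers of the other lineage. Others with trophoblast markers stayed in that fit. Replicate 2 of iPSC alone with BMP4 had 13.8 FPKM of Tfap2c and 16.75 FPKM of Hand1. Its 12 trophoblast stem and progenitor markers summed to 793.4 FPKM, against 609.5 FPKM in replicate 2 of assembled iPSC with BMP4. Replicate 1 of assembled iPSC with BMP4 had 12.5 FPKM of Gata3. The Y-linked gene Eif2s3y was at 0 to 0.78 FPKM in the 8 TSC-origin libraries and 5.75 to 48.2 FPKM in 7 iPSC-origin libraries, so lineage and the presence of Y-linked transcripts cannot be told apart. Replicate 2 of assembled iPSC without BMP4 stood apart from its lineage, at 0.055 FPKM of Eif2s3y. Summed levels of 10 fibroblast markers were 2.79 to 6.65 FPKM in TSC-origin and 1.66 to 5.45 FPKM in iPSC-origin libraries, and those of 10 primitive endoderm markers were 6.02 to 15.9 FPKM in TSC-origin and 3.26 to 6.93 FPKM in iPSC-origin libraries. In such bulk libraries fewer cells of a type and less RNA per cell cannot be told apart.

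Regulatory sequence upstream of 4 members is shown here because these genes are textbook p53 targets and their levels differ between the groups below. RefSeq promoter windows (build GRCm38.p6) were available for 32 of the 38 members, and the 250 bases before each start were searched for the p53 half-site, a 10-base pattern that reads the same on both strands. A half-site was present in 9 of 45 windows of the members (20%), those of Gadd45a, Bax, Aen, Ei24, Sesn1, Mdm2, Ccng1, Trp53 and Cdkn1a, and in 2341 of all 32851 windows (7.13%). For Gadd45a, Aen, Ei24 and Sesn1 the half-site lies before a start but not outside the gene. Neither share was split in this way. Of all windows, 21 (0.064%) held 2 half-sites up to 13 bases apart, and the upstream start of Cdkn1a was one of these, with a gap of 12 bases. The sequences run 5′ to 3′ on the gene's strand and end before the gene, and capitals mark the half-sites. They lie at chr7:45466904-45467148 (minus strand) for Bax, chr10:117710759-117711008 (minus) for Mdm2, chr11:40755312-40755536 (minus) for Ccng1 and chr17:29090729-29090975 (plus) for Cdkn1a.
Cdkn1a: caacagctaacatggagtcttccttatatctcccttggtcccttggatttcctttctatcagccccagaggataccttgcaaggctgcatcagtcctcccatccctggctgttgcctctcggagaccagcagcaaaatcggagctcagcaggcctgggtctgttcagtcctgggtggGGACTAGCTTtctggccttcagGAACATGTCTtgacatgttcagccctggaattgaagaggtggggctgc
Bax: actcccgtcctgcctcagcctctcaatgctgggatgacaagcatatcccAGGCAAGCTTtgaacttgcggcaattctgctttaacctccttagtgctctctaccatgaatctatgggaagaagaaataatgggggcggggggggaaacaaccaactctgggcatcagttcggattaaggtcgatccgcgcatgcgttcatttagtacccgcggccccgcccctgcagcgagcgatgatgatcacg
Ccng1: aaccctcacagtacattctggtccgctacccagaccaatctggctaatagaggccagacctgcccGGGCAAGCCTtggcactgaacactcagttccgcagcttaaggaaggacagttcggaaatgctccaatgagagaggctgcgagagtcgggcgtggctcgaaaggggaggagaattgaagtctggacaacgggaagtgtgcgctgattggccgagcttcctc
Mdm2: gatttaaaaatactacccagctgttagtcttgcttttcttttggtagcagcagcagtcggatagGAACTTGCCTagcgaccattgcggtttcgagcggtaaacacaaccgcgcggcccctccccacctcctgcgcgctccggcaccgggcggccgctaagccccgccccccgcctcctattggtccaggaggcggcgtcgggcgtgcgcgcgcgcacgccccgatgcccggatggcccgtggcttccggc
The first half-site of Cdkn1a begins 73 bases before its upstream start and 2863 bases before its downstream start. Those of Bax, Mdm2 and Ccng1 begin 201, 186 and 185 bases before their starts. A match to these letters is a description of the sequence and not evidence of binding.

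Across all 16 libraries the members spanned a wide range of levels. The highest median FPKM were those of Cycs (276), Trp53 (252), Bax (195) and Cdkn1a (189), followed by Ccng1 (90.7), a cyclin G that p53 induces, and Diablo (76.3), an antagonist of the inhibitor of apoptosis proteins. Cdkn1a, the cyclin-dependent kinase inhibitor p21, ran from 15.0 to 449 FPKM between libraries, whereas Trp53 ran from 86.1 to 409 FPKM and Diablo from 42.9 to 113 FPKM. At the low end, the death receptor Fas and caspase 8 had medians of 1.03 and 0.594 FPKM, and the p53 relative Trp73 had 0.25 FPKM. Bcl2 lay between 0 and 0.624 FPKM and Trp63 between 0 and 0.343 FPKM, with 12 of 16 libraries listed at 0 for Trp63. Of the anti-apoptotic relatives, Bcl2l1 (Bcl-xL) and Mcl1 had medians of 18.9 and 14.9 FPKM.

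**Figure D1:**
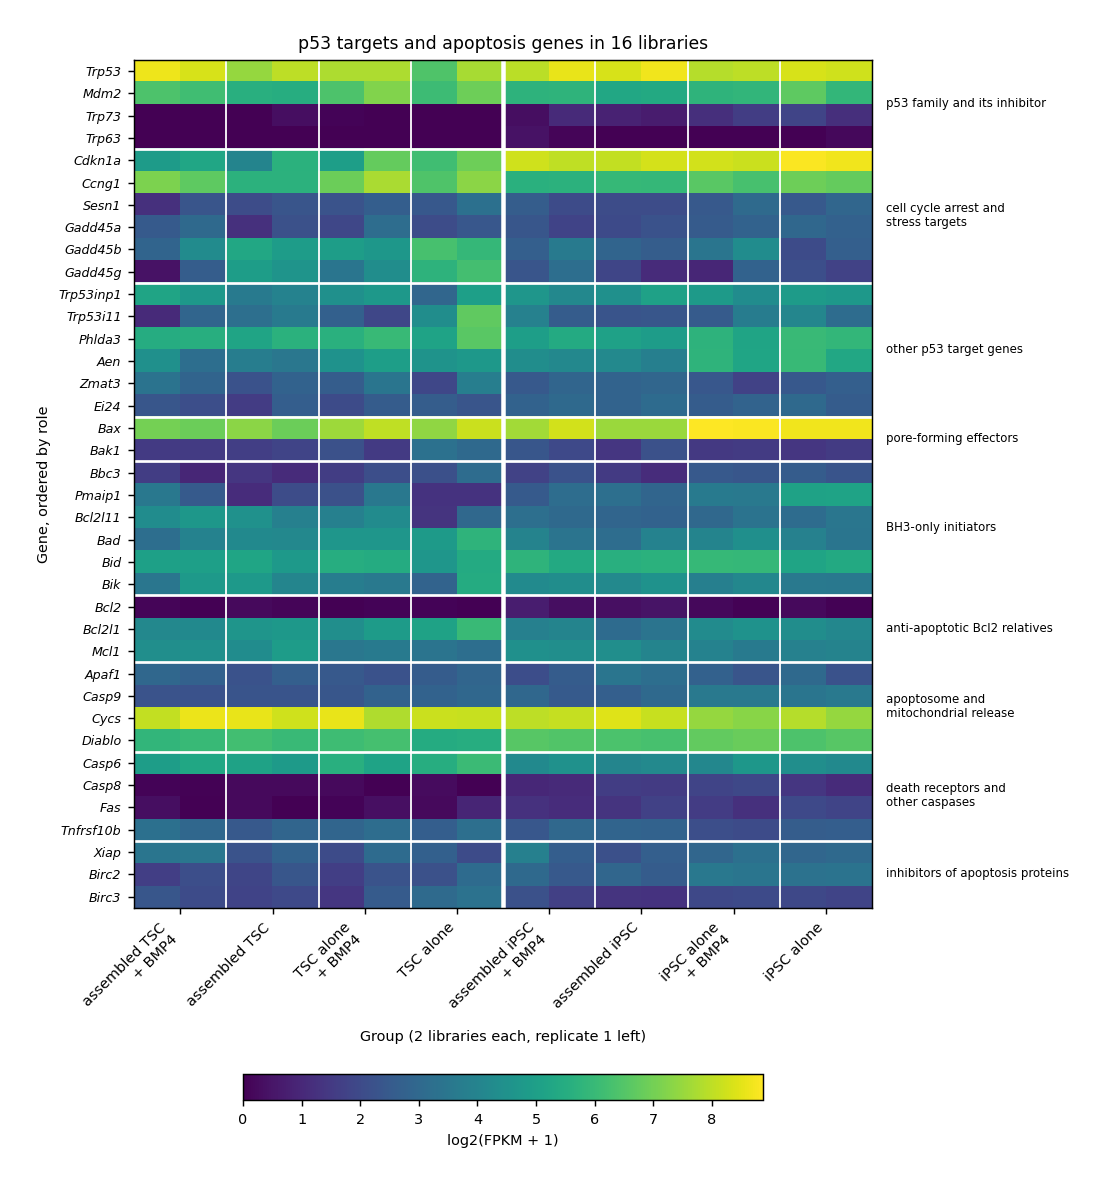
Level of each of the 38 genes (rows, ordered by role) in each of the 16 libraries (columns, 2 per group), as log2(FPKM + 1). Cdkn1a is brightest in the iPSC-origin libraries on the right, and Bax is brightest in iPSC alone. Casp8, Fas and Trp73 are below 1 FPKM in all 8 TSC-origin libraries on the left, and Bcl2 and Trp63 are below 1 FPKM throughout.

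The first comparison asks how TSC-origin and iPSC-origin cells differ, averaged over culture form and BMP4. Cdkn1a had the largest difference among the tested members, lower in TSC-origin cells, and Pmaip1, Casp8, Fas, Trp73 and Bax were lower as well. The growth-arrest genes Gadd45b and Gadd45g, the executioner caspase Casp6 and the protective Bcl2l1 were higher. Of 36 tested members, 11 were higher and 13 lower at an adjusted p below 0.05 (limma on log2(FPKM + 1), Benjamini-Hochberg over 13406 genes), against 48.8% of all genes, 24.8% higher and 24% lower. The median difference of the members was -0.12, and that of all genes was -0.01. Casp8, Fas and Trp73 passed the filter only through iPSC-origin libraries, so a count over the tested members supports nothing by itself.

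Among the cell cycle arrest and stress targets, Cdkn1a stood at 15.0 to 118 FPKM in TSC-origin libraries (median 43.4, n = 8) and 259 to 449 FPKM in iPSC-origin libraries (median 305, n = 8). Every TSC-origin library lay below every iPSC-origin library (difference -2.74 ± 0.27 SE on the log2 scale, limma adjusted p = 4.87e-06). In all, 6 of the 36 members separated the lineages without overlap (Cdkn1a, Casp6, Diablo, Casp8, Fas and Trp73), against 9.34% of all genes. The last 3 of these passed the filter only through iPSC-origin libraries, so this count supports nothing by itself. The difference was within each culture form: Cdkn1a averaged 32.6 ± 14.7 FPKM in assembled TSC and 285 ± 27.3 FPKM in assembled iPSC, and 81.8 ± 39.7 FPKM in TSC alone and 362 ± 78.8 FPKM in iPSC alone (SD, n = 4 each).

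Gadd45b and Gadd45g, stress-induced partners of p38 kinase signalling, ran the other way. Gadd45b stood at 6.33 to 77.7 FPKM in TSC-origin (median 29.3) and 3.10 to 18.7 FPKM in iPSC-origin libraries (median 5.84), and the ranges overlapped (1.87 ± 0.23, limma adjusted p = 3.05e-05). Gadd45g stood at 0.362 to 73.2 FPKM in TSC-origin (median 21.3) and 0.934 to 8.31 FPKM in iPSC-origin libraries (median 2.98; 2.03 ± 0.34, limma adjusted p = 0.000346). Replicate 1 of assembled TSC with BMP4 held the lowest Gadd45g value of all 16 libraries. Between the assembled parts with BMP4 the order was turned, with 2.77 ± 3.40 FPKM of Gadd45g in the TSC part and 6.22 ± 2.96 FPKM in the iPSC part (SD, n = 2 each). Their relative Gadd45a (-0.12 ± 0.22) and Sesn1, an antioxidant and growth regulator (-0.13 ± 0.21), did not pass. Ccng1 averaged 114 ± 55.0 FPKM in TSC-origin and 77.7 ± 27.2 FPKM in iPSC-origin libraries (0.47 ± 0.16, limma adjusted p = 0.0249). That call was lost at an adjusted p of 0.0524 to 0.0607 without any of 5 libraries (iPSC alone replicate 2, iPSC alone with BMP4 replicate 2, TSC alone replicate 2, TSC alone with BMP4 replicate 2, and assembled TSC with BMP4 replicate 1).

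Trp53 transcripts were abundant in both lineages. Trp53 stood at 86.1 to 405 FPKM in TSC-origin (median 219) and 234 to 409 FPKM in iPSC-origin libraries (median 310.3), with overlap. The difference of -0.47 ± 0.18 passed (limma adjusted p = 0.0403), but it was lost at an adjusted p of 0.062 to 0.0969 when any of 11 of the 16 libraries was left out. It held without replicate 2 of TSC alone, replicate 1 of assembled iPSC, replicate 2 of assembled TSC, replicate 1 of assembled iPSC with BMP4 or replicate 1 of assembled TSC with BMP4. Mdm2 stood at 45.5 to 144 FPKM in TSC-origin (median 76.2) and 38.7 to 101 FPKM in iPSC-origin libraries (median 53.4). Its difference of 0.48 ± 0.16 (limma adjusted p = 0.0273) passed. The Mdm2 call was lost without any of 7 libraries, at 0.0517 to 0.0738 (replicate 2 of iPSC alone and of TSC alone, replicate 1 of both assembled parts without BMP4, replicate 1 of iPSC alone with BMP4, replicate 2 of TSC alone with BMP4, and replicate 1 of assembled TSC with BMP4). Trp73 stood at 0 to 0.244 FPKM in TSC-origin libraries, 5 of them listed at 0, and 0.255 to 2.49 FPKM in iPSC-origin libraries (-1.04 ± 0.15, limma adjusted p = 0.0001). Trp73 passed the filter only through iPSC-origin libraries, so its p-value supports nothing by itself.

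Of the 6 other p53 target genes, only Aen and Ei24 passed, against 48.8% of all genes. Aen, an exonuclease that p53 induces, stood at 8.15 to 30.7 FPKM in TSC-origin (median 21.5) and 13.4 to 62.2 FPKM in iPSC-origin libraries (median 27.9; -0.64 ± 0.19, limma adjusted p = 0.0139). Ei24, an endoplasmic reticulum protein first found as a p53-induced gene, averaged 4.03 ± 1.15 FPKM in TSC-origin and 6.21 ± 1.0 FPKM in iPSC-origin libraries (SD, n = 8 each; -0.55 ± 0.18). Its call was lost without any of 4 libraries, at an adjusted p of 0.0505 to 0.0587 (replicate 1 of iPSC alone, replicate 2 of assembled iPSC, replicate 2 of iPSC alone with BMP4 and replicate 1 of TSC alone with BMP4). Trp53inp1, Trp53i11, Phlda3 and Zmat3 had differences between -0.31 and 0.33 that did not pass.

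The mitochondrial effectors and their regulators differed member by member. Bax stood at 116 to 283 FPKM in TSC-origin (median 164) and 184 to 468 FPKM in iPSC-origin libraries (median 357; -0.85 ± 0.14, limma adjusted p = 0.000272), whereas its partner Bak1 did not pass (0.33 ± 0.16, limma adjusted p = 0.113). Of the BH3-only genes, Pmaip1 stood at 1.16 to 10.7 FPKM in TSC-origin (median 3.40) and 4.70 to 34.1 FPKM in iPSC-origin libraries (median 9.82; -1.47 ± 0.23, limma adjusted p = 0.000217). Between the assembled parts with BMP4 the order of Pmaip1 was turned, with 7.65 ± 4.18 FPKM in the TSC part and 6.34 ± 2.32 FPKM in the iPSC part (SD, n = 2 each), and iPSC alone without BMP4 was highest, at 33.8 ± 0.409 FPKM. Bid, which links death receptors to mitochondria, was lower in TSC-origin cells (35.0 ± 7.75 FPKM, against 48.4 ± 8.93 FPKM in iPSC-origin cells, SD, n = 8 each; -0.47 ± 0.13), and Bad was higher (23.3 ± 13.6 FPKM, against 13.2 ± 3.93 FPKM in iPSC-origin cells; 0.64 ± 0.19). Bcl2l11 (Bim) averaged 14.9 ± 7.71 FPKM in TSC-origin and 7.80 ± 1.48 FPKM in iPSC-origin cells (0.61 ± 0.22, limma adjusted p = 0.0353). The Bcl2l11 call was lost at 0.0558 to 0.0842 without any of 8 libraries, namely replicate 1 of iPSC alone without and with BMP4, both replicates of assembled iPSC, replicate 2 of assembled iPSC with BMP4, replicate 2 of TSC alone with BMP4, replicate 1 of assembled TSC and replicate 2 of assembled TSC with BMP4. Bbc3 (-0.28 ± 0.18) and Bik (0.04 ± 0.32) did not pass.

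Among the protective Bcl2 relatives, Bcl2l1 stood at 16.5 to 63.1 FPKM in TSC-origin (median 24.4) and 7.66 to 21.9 FPKM in iPSC-origin libraries (median 15.5; 0.80 ± 0.15, limma adjusted p = 0.000612). Mcl1 overlapped, at 8.32 to 28.8 FPKM in TSC-origin and 11.6 to 20.9 FPKM in iPSC-origin libraries (-0.10 ± 0.12, limma adjusted p = 0.504). Downstream of mitochondria, Diablo was lower without overlap in TSC-origin libraries (42.9 to 75.3 FPKM, against 77.4 to 113 FPKM in iPSC-origin libraries; -0.60 ± 0.09, limma adjusted p = 0.00012), and caspase 9, the initiator of the apoptosome, was lower too (3.70 to 6.79 FPKM, against 4.69 to 11.1 FPKM in iPSC-origin libraries; -0.66 ± 0.13). Apaf1 did not pass (-0.11 ± 0.16). Cycs averaged 314 ± 63.6 FPKM in TSC-origin and 236 ± 64.8 FPKM in iPSC-origin libraries (0.43 ± 0.14, limma adjusted p = 0.0208). This call was lost at 0.0529 to 0.0574 without any of 4 libraries (replicate 2 of iPSC alone, replicate 2 of assembled iPSC, replicate 1 of assembled TSC and replicate 2 of assembled TSC with BMP4).

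Of the death receptors and other caspases, 2 were lower and 2 higher in TSC-origin cells, against 24% and 24.8% of all genes. Caspase 8, the initiator caspase of that arm, was at 0 to 0.207 FPKM in TSC-origin libraries and 0.981 to 2.82 FPKM in iPSC-origin libraries (-1.30 ± 0.12, limma adjusted p = 2.33e-06). Fas was at 0 to 0.885 FPKM in TSC-origin and 1.18 to 2.88 FPKM in iPSC-origin libraries (-1.23 ± 0.14, limma adjusted p = 2.04e-05). Casp8 and Fas passed the filter only through iPSC-origin libraries, so their p-values support nothing by themselves. Casp6 was higher without overlap in TSC-origin cells, at 27.6 to 65.7 FPKM, against 15.4 to 25.2 FPKM in iPSC-origin cells (1.02 ± 0.14, limma adjusted p = 5.94e-05). The death receptor Tnfrsf10b averaged 6.83 ± 1.46 FPKM in TSC-origin and 5.04 ± 1.39 FPKM in iPSC-origin cells (0.39 ± 0.15, limma adjusted p = 0.0463). That call was lost at 0.0722 to 0.104 when any of 11 libraries was left out. It held without replicate 1 of TSC alone, replicate 1 of assembled TSC, replicate 1 of TSC alone with BMP4, replicate 2 of assembled iPSC with BMP4 or replicate 2 of assembled TSC with BMP4.

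Of the inhibitors of apoptosis proteins, Birc2 was lower in TSC-origin cells (3.71 ± 1.76 FPKM, against 7.86 ± 2.31 FPKM in iPSC-origin cells; -0.94 ± 0.18, limma adjusted p = 0.000916) and Xiap did not pass (-0.21 ± 0.22). Birc3 averaged 4.44 ± 2.58 FPKM in TSC-origin and 2.49 ± 0.717 FPKM in iPSC-origin cells (0.54 ± 0.17, limma adjusted p = 0.0212; 0.0505 without replicate 1 of assembled TSC with BMP4). Of the 24 calls between lineages, 16 held in every fit with another pseudocount, filter, scaling, weighting or block and without any single library. The 16 include Casp8, Fas and Trp73, which passed the filter only through iPSC-origin libraries. Of the calls that did not hold throughout, Trp53, Mdm2, Bcl2l11 and Tnfrsf10b did not pass without a filter on low values, nor did these 4, Ccng1 and Birc3 without both libraries that carry markers of the other lineage, Cycs and Tnfrsf10b after upper quartile rescaling, or Bcl2l11 with a pseudocount of 0.1.

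**Figure D2:**
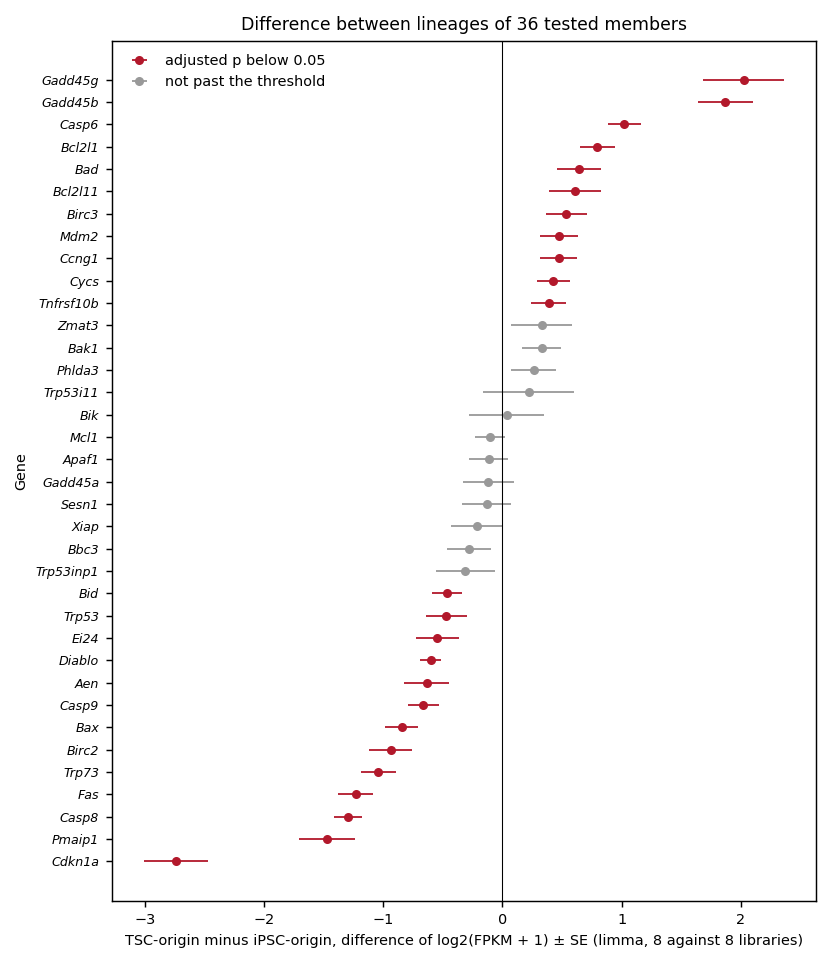
Difference of log2(FPKM + 1) between the 8 TSC-origin and the 8 iPSC-origin libraries for each of 36 tested genes (points, with bars of 1 SE from limma), red where the adjusted p is below 0.05. Cdkn1a lies farthest to the left at -2.74 and Gadd45g farthest to the right at 2.03.

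The next comparisons ask how cells in an assembled structure differ from the same cells grown alone. In the TSC part, Bcl2l11 and Mcl1 were higher than in TSC alone, and Bad, Bax, Bbc3, Bcl2l1 and Gadd45g were among the genes that were lower. In the iPSC part, Aen, Bax and Pmaip1 were lower than in iPSC alone. For the TSC part, 2 of 36 tested members were higher and 11 lower, against 17.6% of all genes (6.97% higher and 10.6% lower), with a median difference of -0.29 for the members and -0.001 for all genes. For the iPSC part, 1 was higher and 8 lower, against 26.6% of all genes (5.95% higher and 20.6% lower), with medians of -0.28 and -0.19. Quantile normalization and upper quartile rescaling moved the median of all genes in the iPSC part to near 0, and the members called there were then 3 higher and 4 lower, and 4 higher and 3 lower, so that the number of lower genes in the iPSC part depends on the scale.

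Bax was lower in both parts. It stood at 128 and 116 FPKM in assembled TSC with BMP4 and 159 and 117 FPKM without, against 191 and 259 FPKM in TSC alone with BMP4 and 169 and 283 FPKM without. All 4 assembled TSC libraries lay below all 4 of TSC alone (-0.77 ± 0.20, limma adjusted p = 0.0189). The call was lost without replicate 2 of assembled TSC (0.0747), of TSC alone with BMP4 (0.074), of TSC alone (0.057) or of assembled TSC with BMP4 (0.0558), and without both libraries that carry markers of the other lineage (0.0575). Assembled iPSC had Bax at 198 and 305 FPKM with BMP4 and 184 and 187 FPKM without, against 468 and 451 FPKM in iPSC alone with BMP4 and 409 and 409 FPKM without. These groups did not overlap either (-1.02 ± 0.20, limma adjusted p = 0.00301), and the call held under every scaling and without any single library.

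Aen stood at 21.1 and 8.15 FPKM in assembled TSC with BMP4 and 12.5 and 10.4 FPKM without, against 21.9 and 30.7 FPKM in TSC alone with BMP4 and 22.7 and 25.4 FPKM without (-0.97 ± 0.27, limma adjusted p = 0.0272). This difference did not pass under either rescaling, nor without replicate 2 of TSC alone (0.0627), either replicate of assembled TSC (0.0529 and 0.0839), replicate 2 of TSC alone with BMP4 (0.106) or replicate 2 of assembled TSC with BMP4 (0.09). In iPSC-origin cells the separation was wider, with 19.3 and 16.8 FPKM in assembled iPSC with BMP4 and 17.0 and 13.4 FPKM without, against 53.8 and 36.5 FPKM in iPSC alone with BMP4 and 62.2 and 38.8 FPKM without (-1.45 ± 0.27, limma adjusted p = 0.00247). That call held in every alternative.

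Lower in both parts were 5 members, Aen, Bax, Bbc3, Bcl2l1 and Ccng1, which is 62.5% of the 8 lower in the iPSC part and 45.5% of the 11 lower in the TSC part. The same shares over all genes were 25.7% of those lower in the iPSC part and 49.9% of those lower in the TSC part (710 genes lower in both), so the members' share of the TSC part's list lay near that of all genes. Ccng1 averaged 85.4 ± 42.6 FPKM in assembled TSC and 143 ± 55.1 FPKM in TSC alone, and 55.0 ± 6.01 FPKM in assembled iPSC and 101 ± 17.6 FPKM in iPSC alone (SD, n = 4 each; -0.79 ± 0.22 and -0.85 ± 0.22). The Ccng1 call in the iPSC part was lost under both rescalings and without replicate 1 of iPSC alone with BMP4 (limma adjusted p = 0.0607). Bbc3 averaged 1.46 ± 0.518 FPKM in assembled TSC and 4.18 ± 2.49 FPKM in TSC alone (-0.99 ± 0.26), and 2.28 ± 1.08 FPKM in assembled iPSC and 4.43 ± 0.418 FPKM in iPSC alone (-0.78 ± 0.26). Of the Bbc3 calls, that in the iPSC part was lost under both rescalings (0.0872 and 0.129), with a pseudocount of 0.1 (0.0512), no filter (0.0828) or the replicate block (0.0536), and without any of 9 libraries, at an adjusted p of 0.0511 to 0.139, namely any iPSC-origin library but replicate 2 of assembled iPSC with BMP4, and either library of assembled TSC without BMP4.

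Mcl1, a short-lived protective Bcl2 relative, was the member whose rise in the assembled TSC part held in every alternative and without any single library. It stood at 19.8 and 21.2 FPKM in assembled TSC with BMP4 and 18.9 and 28.8 FPKM without, against 10.4 and 11.4 FPKM in TSC alone with BMP4 and 9.75 and 8.32 FPKM without. The lowest assembled TSC library lay above the highest library of TSC alone (1.07 ± 0.17, limma adjusted p = 0.00253). Mcl1 in the iPSC part stood at 20.9 and 20 FPKM with BMP4 and 19.9 and 15.2 FPKM without, against 14.2 and 11.6 FPKM in iPSC alone with BMP4 and 13.9 and 14.6 FPKM without (0.45 ± 0.17, limma adjusted p = 0.0711). It passed after quantile normalization (0.78, adjusted p = 0.00802) and upper quartile rescaling (0.77, adjusted p = 0.00894). The difference between the parts was not past the threshold (0.62 ± 0.25, limma adjusted p = 0.157).

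Bcl2l1 was lower in both parts as deposited. It averaged 20.7 ± 4.35 FPKM in assembled TSC and 36.1 ± 18.9 FPKM in TSC alone (SD, n = 4 each; -0.67 ± 0.21, limma adjusted p = 0.0399), and 11.5 ± 3.33 FPKM in assembled iPSC and 19.0 ± 2.39 FPKM in iPSC alone (-0.71 ± 0.21, limma adjusted p = 0.0226). The call in the TSC part was lost without any of 12 libraries (0.0511 to 0.145). It held without replicate 1 of TSC alone, replicate 1 of TSC alone with BMP4 or either replicate of assembled iPSC with BMP4. That in the iPSC part was lost under both rescalings and without replicate 1 of iPSC alone (0.0768), of assembled iPSC (0.0785) or of assembled iPSC with BMP4 (0.0604) or replicate 2 of iPSC alone with BMP4 (0.0744). The ratio of Mcl1 to Bcl2l1 within a library, a measure chosen after the values were seen, was 0.807 to 1.21 in assembled TSC and 0.132 to 0.526 in TSC alone, and 1.35 to 2.60 in assembled iPSC and 0.528 to 0.907 in iPSC alone.

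**Figure D3:**
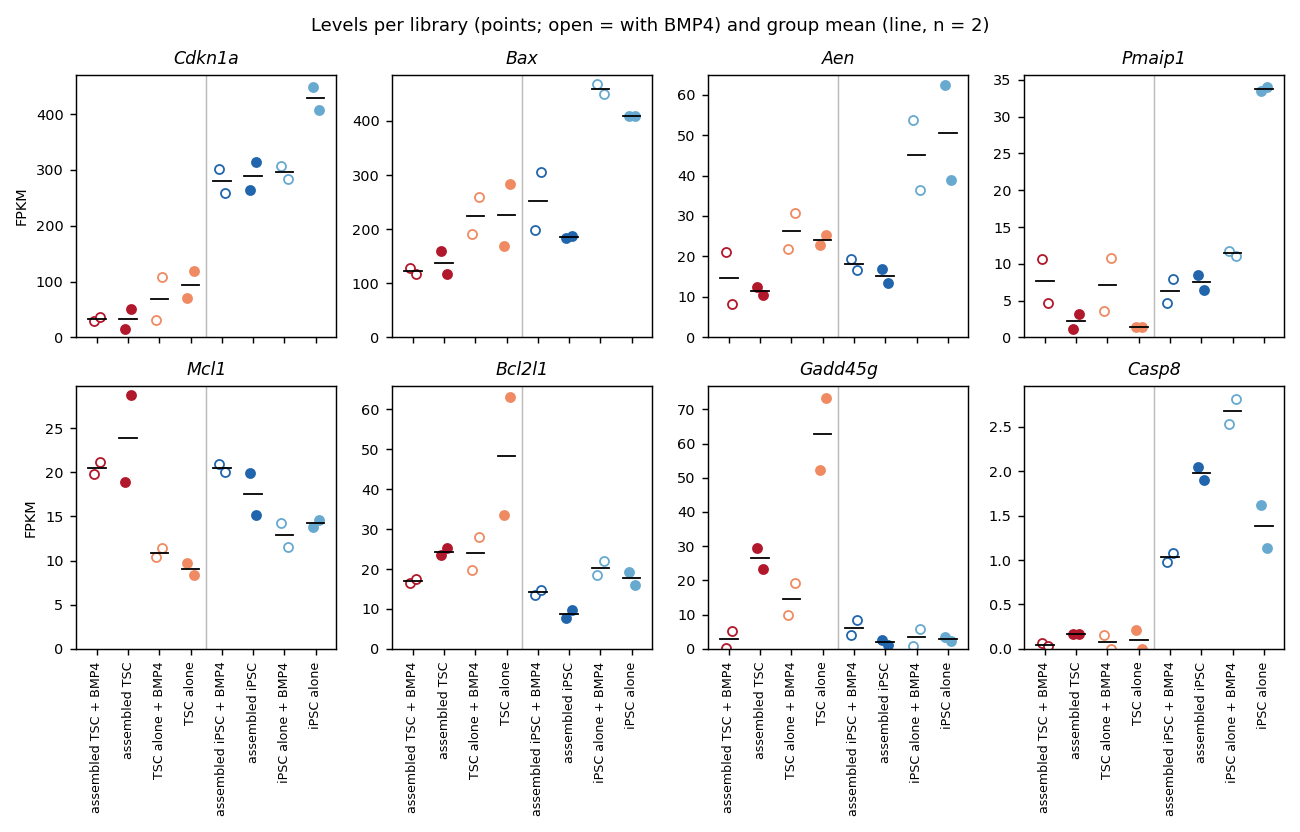
FPKM of 8 genes in each library (points, open with BMP4) with the group mean (line, n = 2), TSC-origin groups left of the grey line and iPSC-origin groups right of it, assembled groups before the cells grown alone. Bax and Aen are lower in the assembled iPSC part than in iPSC alone, and Mcl1 is 18.9 FPKM or higher in all 4 assembled TSC libraries and 11.4 FPKM or lower in all 4 of TSC alone.

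Among the other BH3-only genes, Pmaip1 passed in the iPSC part and Bad and Bcl2l11 in the TSC part. Pmaip1 in the iPSC part stood at 4.70 and 7.98 FPKM with BMP4 and 8.55 and 6.51 FPKM without, against 11.7 and 11.1 FPKM in iPSC alone with BMP4 and 33.5 and 34.1 FPKM without (-1.42 ± 0.33, limma adjusted p = 0.00822). Both libraries of iPSC alone without BMP4 stood far above the rest, and the call held in every alternative. In the TSC part its difference was 0.22 ± 0.33, and the difference between parts was 1.63 ± 0.47 (limma adjusted p = 0.067). Bad in the TSC part stood at 8.30 and 14.2 FPKM with BMP4 and 17.3 and 16.5 FPKM without, against 24.6 and 24.6 FPKM in TSC alone with BMP4 and 27.3 and 53.2 FPKM without, without overlap (-1.12 ± 0.26, limma adjusted p = 0.014; 0.0552 without replicate 1 of assembled TSC with BMP4). The difference between the parts did not pass for Bad (-0.80, limma adjusted p = 0.22).

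Bcl2l11 was the other member higher in the TSC part. It stood at 18.7 and 25.1 FPKM in assembled TSC with BMP4 and 21.3 and 13.4 FPKM without, against 13.6 and 18.4 FPKM in TSC alone with BMP4 and 1.52 and 7.01 FPKM without (1.21 ± 0.31, limma adjusted p = 0.0193). The low values were both in TSC alone without BMP4, and the call was lost without replicate 1 of assembled TSC (0.069) or replicate 2 of assembled TSC with BMP4 (0.0649). Bak1 averaged 2.10 ± 0.335 FPKM in assembled TSC and 5.34 ± 3.19 FPKM in TSC alone (-0.88 ± 0.23, limma adjusted p = 0.022), with 8.80 and 7.13 FPKM in TSC alone without BMP4. Bak1 in the iPSC part averaged 3.08 ± 1.06 FPKM against 1.81 ± 0.127 FPKM in iPSC alone (0.50 ± 0.23). This did not pass as deposited but passed after upper quartile rescaling (0.73, limma adjusted p = 0.0466). Bak1 was the 1 member whose assembly difference was itself different between the parts (-1.38 ± 0.33, limma adjusted p = 0.0374), against 4.15% of all genes (2.94% higher and 1.22% lower). That difference did not pass with a pseudocount of 0.1, with no filter or with the replicate block, nor without any of 12 libraries, at 0.0539 to 0.0943. It held without replicate 2 of TSC alone, replicate 1 of assembled iPSC, replicate 2 of TSC alone with BMP4 or replicate 2 of assembled iPSC with BMP4. The call in the TSC part was lost without replicate 1 of TSC alone (0.051), of assembled TSC (0.0627) or of TSC alone with BMP4 (0.0546), or either replicate of assembled TSC with BMP4 (0.0598 and 0.054).

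Of the cell cycle arrest and stress targets, 4 of 6 were lower in the assembled TSC part, against 10.6% of all genes. All 4 calls (Cdkn1a, Ccng1, Gadd45b and Gadd45g) were lost with no filter on low values. Cdkn1a stood at 28.6 and 36.8 FPKM in assembled TSC with BMP4 and 15.0 and 50.1 FPKM without, against 30.8 and 108 FPKM in TSC alone with BMP4 and 70.5 and 118 FPKM without. These groups overlapped (-1.25 ± 0.38, limma adjusted p = 0.0395), and the call was lost at 0.0528 to 0.16 without any of 11 libraries. It held without replicate 1 of TSC alone, replicate 2 of assembled TSC, replicate 1 of TSC alone with BMP4 or either replicate of assembled iPSC with BMP4. Assembled iPSC averaged 285 ± 27.3 FPKM of Cdkn1a, against 362 ± 78.8 FPKM in iPSC alone, and did not pass (-0.33 ± 0.38, limma adjusted p = 0.568). The difference between the parts did not pass (-0.93 ± 0.54, limma adjusted p = 0.325).

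Gadd45g averaged 14.6 ± 14.0 FPKM in assembled TSC and 38.7 ± 29.3 FPKM in TSC alone (SD, n = 4 each; -1.78 ± 0.48, limma adjusted p = 0.0246), and Gadd45b averaged 23.1 ± 13.9 FPKM in assembled TSC and 48.0 ± 25.0 FPKM in TSC alone (-1.12 ± 0.33, limma adjusted p = 0.0331). The Gadd45g call was lost without replicate 2 of TSC alone (0.0653), either replicate of assembled TSC (0.0533 and 0.0761), replicate 2 of TSC alone with BMP4 (0.102) or replicate 1 of assembled TSC with BMP4 (0.0868). The Gadd45b call was lost without any of 6 libraries at 0.0569 to 0.122, namely either replicate of assembled TSC or of TSC alone with BMP4, replicate 1 of TSC alone and replicate 1 of assembled TSC with BMP4. Mdm2 averaged 61.3 ± 18.0 FPKM in assembled TSC and 103 ± 34.9 FPKM in TSC alone (-0.72 ± 0.23, limma adjusted p = 0.047). That call was lost after both rescalings and without any of 12 libraries at 0.0525 to 0.181 and held without either replicate of iPSC alone, replicate 1 of TSC alone or replicate 1 of TSC alone with BMP4. Trp53 averaged 289 ± 97.7 FPKM in assembled TSC and 183 ± 65.1 FPKM in TSC alone, which did not pass (0.68 ± 0.25, limma adjusted p = 0.0754) except after upper quartile rescaling (adjusted p = 0.027).

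The count of members called in the TSC part was itself uneven. It was 4 without replicate 1 of assembled TSC, without replicate 2 of TSC alone with BMP4 or without replicate 2 of assembled TSC with BMP4. It was 5 without replicate 2 of assembled TSC, the library with epiblast markers, 6 without replicate 1 of assembled TSC with BMP4 and 7 without replicate 2 of TSC alone. The calls of Bbc3 and Ccng1 in the TSC part were among those lost without replicate 2 of assembled TSC (0.0746 and 0.0745), without replicate 2 of TSC alone (0.0666 and 0.09), without replicate 2 of TSC alone with BMP4 (0.0888 and 0.118) and without replicate 2 of assembled TSC with BMP4 (0.0836 and 0.0987), and Ccng1 also without replicate 1 of assembled TSC (0.0717). Mdm2, Cdkn1a, Bbc3, Bcl2l1, Ccng1, Gadd45b, Gadd45g and Aen did not pass in the TSC part without a filter. Mdm2, Cdkn1a, Bcl2l1, Bak1, Gadd45b, Gadd45g and Aen did not pass with library quality weights. Mdm2, Bax, Bbc3, Bcl2l1, Ccng1, Gadd45b, Gadd45g and Aen did not pass without both libraries that carry markers of the other lineage, nor did Mdm2 with the replicate block (0.0579). Markers of differentiated trophoblast moved with this comparison. Their summed level over 16 genes was 520 to 990.2 FPKM in assembled TSC and 1451 to 13770 FPKM in TSC alone. Of these markers 4 of 7 tested were lower, and the giant cell and spongiotrophoblast markers Prl3d1, Prl3b1, Prl8a9, Ctsq, Ctsj and Tpbpa were at 0 in all of these libraries. Pluripotency and epiblast markers summed to 363 to 1233 FPKM in assembled TSC and 221.7 to 536.8 FPKM in TSC alone, and 2 of 12 were higher (Dppa4 and Dnmt3b, 1.22 and 1.15) and 0 lower. The Dnmt3b call was lost without any of 6 TSC-origin libraries, all but replicate 1 of TSC alone and of assembled TSC. Trophoblast stem and progenitor markers summed to 589.9 to 1709 FPKM in assembled TSC and 1555 to 6280 FPKM in TSC alone. Of these 12, 2 were higher (Eomes and Esrrb, each 2.60) and 4 lower, among them Krt8 (-3.07), Krt18 (-1.76) and Tfap2c (-1.54). Krt8 and Krt18 averaged 166 and 468 FPKM in assembled TSC and 1288 and 1503 FPKM in TSC alone, so they weigh heavily in the sums. Without BMP4, Eomes stood at 11.2 and 30.5 FPKM in assembled TSC and 0.219 and 0.0844 FPKM in TSC alone. Elf5, which did not pass, stood there at 116 and 159 FPKM in assembled TSC and 5.51 and 11.6 FPKM in TSC alone. The part of these markers in the differences of the members was not tested.

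In the apoptosome group of the iPSC part, caspase 9 averaged 6.02 ± 1.18 FPKM in assembled iPSC and 10.7 ± 0.611 FPKM in iPSC alone (SD, n = 4 each; -0.75 ± 0.19, limma adjusted p = 0.011), a call that was lost only under the 2 rescalings. Cycs was the only member higher there, at 287 ± 41.5 FPKM in assembled iPSC against 186 ± 34.6 FPKM in iPSC alone (0.63 ± 0.20, limma adjusted p = 0.0302). It was lost without replicate 2 of iPSC alone (0.122), replicate 1 of assembled iPSC (0.102), either replicate of iPSC alone with BMP4 (0.0656 and 0.089) or either replicate of assembled iPSC with BMP4 (0.0562 and 0.0658), and with no filter (0.058) or without both libraries that carry markers of the other lineage (0.0751). Trp73 averaged 0.687 ± 0.346 FPKM in assembled iPSC and 1.79 ± 0.594 FPKM in iPSC alone (-0.73 ± 0.21, limma adjusted p = 0.0236). It was lost with a pseudocount of 0.1, after upper quartile rescaling, and without replicate 1 of iPSC alone (0.0916), replicate 2 of assembled iPSC (0.078), replicate 2 of iPSC alone with BMP4 (0.0845) or replicate 1 of assembled iPSC with BMP4 (0.0868). The count of members called in the iPSC part was 5 without replicate 2 of iPSC alone with BMP4 and 5 without replicate 1 of assembled iPSC with BMP4. None of the 4 death receptor and caspase members or the 3 inhibitors of apoptosis proteins passed in either part with the values as deposited. There 19 of 36 members in the TSC part and 13 in the iPSC part had an unadjusted limma p under 0.05. Over all 13406 genes 4318 in the TSC part and 5215 in the iPSC part did. After either rescaling Tnfrsf10b passed in the iPSC part (0.64, adjusted p = 0.0301, and 0.68, adjusted p = 0.0256). Pluripotency and epiblast markers had overlapping summed levels, 1149 to 3962 FPKM in assembled iPSC and 2240 to 4078 FPKM in iPSC alone. Of 12 markers 3 were lower and 0 higher, against 20.6% and 5.95% of all genes. The lower markers were Fgf5 (-1.92), Dnmt3b (-1.86) and Pou5f1 (-1.70 ± 0.46). Pou5f1 averaged 78.5 ± 26.1 FPKM in assembled iPSC and 254.7 ± 70.2 FPKM in iPSC alone (SD, n = 4 each). Its call was lost with a pseudocount of 0.1 (limma adjusted p = 0.124) or no filter (0.0502). It was also lost without replicate 1 of iPSC alone, of iPSC alone with BMP4 or of assembled iPSC with BMP4. Of 12 trophoblast stem and progenitor markers, which summed to 190.6 to 609.5 FPKM in assembled iPSC and 130.5 to 793.4 FPKM in iPSC alone, 1 was higher (Eomes, 1.42). The part of these markers in the members' differences was not tested.

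**Figure D4:**
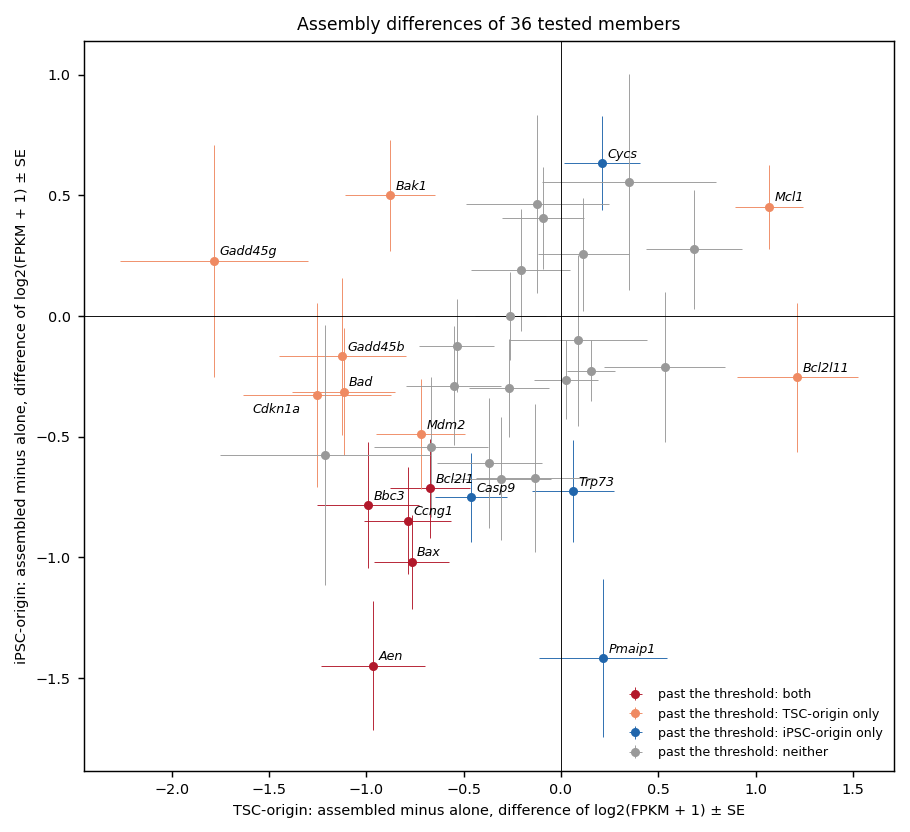
Assembled minus alone, as the difference of log2(FPKM + 1) with bars of 1 SE, in TSC-origin cells (horizontal axis) against iPSC-origin cells (vertical axis) for 36 tested genes, coloured by where the adjusted p is below 0.05. Aen, Bax, Bbc3, Bcl2l1 and Ccng1 lie in the lower left, Mcl1 lies to the right at 1.07, and Pmaip1 lies low on the vertical axis, at -1.42.

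The last comparisons ask what BMP4 changed. In TSC-origin cells, Gadd45g, Gadd45b and Trp53i11 were lower with BMP4, and Pmaip1, Bcl2l11 and Ccng1 were higher. Of 36 tested members 3 were higher and 3 lower, against 7.03% of all genes (3.63% higher and 3.41% lower). Bcl2l1 also passed as lower with BMP4 in TSC-origin cells after quantile normalization (-0.70, limma adjusted p = 0.0335) and upper quartile rescaling (-0.69, adjusted p = 0.0325). After upper quartile rescaling the BMP4 effects of Bcl2l1 (-1.005, adjusted p = 0.0476) and Ccng1 (1.28, adjusted p = 0.0302) also differed between the lineages. In iPSC-origin cells 0 members passed with limma, against 0.186% of all genes (0.104% higher and 0.0821% lower). There 3 members had an unadjusted limma p under 0.05 (Gadd45b, Pmaip1 and Apaf1), against 1413 of all 13406 genes. The lowest adjusted p of the members was 0.305, for Gadd45b.

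Gadd45g was the BMP4 difference that held in every alternative and without any single library. It stood at 0.362 and 5.17 FPKM in assembled TSC with BMP4 and 9.99 and 19.2 FPKM in TSC alone with BMP4, against 29.5 and 23.4 FPKM in assembled TSC and 52.3 and 73.2 FPKM in TSC alone without BMP4. No library with BMP4 reached the lowest library without it (-2.65 ± 0.48, limma adjusted p = 0.00693). In iPSC-origin cells Gadd45g averaged 4.83 ± 3.11 FPKM with BMP4 and 2.37 ± 0.911 FPKM without (SD, n = 4 each; 0.62 ± 0.48), and the effects differed between the lineages (-3.28 ± 0.68, limma adjusted p = 0.0252; lost without any of 7 libraries, at up to 0.0684). Gadd45b averaged 19.9 ± 10.1 FPKM with BMP4 and 51.2 ± 21.8 FPKM without in TSC-origin cells (-1.41 ± 0.33, limma adjusted p = 0.0225), and 11.4 ± 5.54 FPKM with BMP4 and 4.97 ± 1.34 FPKM without in iPSC-origin cells (0.97 ± 0.33, limma adjusted p = 0.305). The difference between these effects passed (-2.38 ± 0.46, limma adjusted p = 0.019) but not without replicate 1 of iPSC alone (0.0591), replicate 2 of assembled iPSC (0.0505) or replicate 2 of iPSC alone with BMP4 (0.0593).

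Pmaip1 moved the other way. It stood at 10.6 and 4.69 FPKM in assembled TSC with BMP4 and 3.59 and 10.7 FPKM in TSC alone with BMP4, against 1.16 and 3.20 FPKM in assembled TSC and 1.47 and 1.47 FPKM in TSC alone without BMP4. There was no overlap (1.5 ± 0.33, limma adjusted p = 0.0173). The call was lost without replicate 1 of assembled TSC (0.0624), replicate 2 of TSC alone with BMP4 (0.0507) or replicate 1 of assembled TSC with BMP4 (0.0783). In iPSC-origin cells Pmaip1 averaged 8.88 ± 3.23 FPKM with BMP4 and 20.7 ± 15.2 FPKM without (-0.87 ± 0.33, limma adjusted p = 0.377), and the effects differed between the lineages (2.37 ± 0.47, limma adjusted p = 0.0194; lost without any of 5 libraries, at up to 0.0593). In all, 3 members differed in their BMP4 effect between lineages (1 higher and 2 lower), against 2.69% of all genes (1.26% higher and 1.42% lower).

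Trp53i11, a p53-induced membrane protein gene, averaged 3.92 ± 2.47 FPKM with BMP4 and 35.5 ± 45.2 FPKM without in TSC-origin cells (SD, n = 4 each; -2.34 ± 0.54, limma adjusted p = 0.0216). Replicate 2 of TSC alone, at 103 FPKM, stood far above the other libraries. The call was lost without it (0.0587), without replicate 1 or 2 of assembled TSC (0.0503 and 0.0815), without replicate 2 of TSC alone with BMP4 (0.0673) or without replicate 1 of assembled TSC with BMP4 (0.095). Bcl2l11 averaged 18.9 ± 4.71 FPKM with BMP4 and 10.8 ± 8.53 FPKM without (1.12 ± 0.31, limma adjusted p = 0.0467). The call was lost with a pseudocount of 0.1 (0.0626) and without any library but replicate 2 of TSC alone, at 0.0515 to 0.169. Ccng1 averaged 142 ± 49.1 FPKM with BMP4 and 86.5 ± 50.9 FPKM without (0.82 ± 0.22, limma adjusted p = 0.0448). It was also lost with the replicate block (0.055), quantile normalization (0.0679) or quality weights (0.0657), and without any of 11 libraries at 0.0614 to 0.166. It held without replicate 2 of TSC alone, replicate 1 of TSC alone with BMP4, either replicate of assembled iPSC with BMP4 or replicate 2 of assembled TSC with BMP4. The Gadd45b call was lost without replicate 1 of TSC alone (0.057), either replicate of assembled TSC (0.0725 and 0.0539), either replicate of TSC alone with BMP4 (0.0533 and 0.061) or replicate 1 of assembled TSC with BMP4 (0.0869).

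Trp53 averaged 291 ± 89.6 FPKM with BMP4 and 181 ± 71.1 FPKM without in TSC-origin cells and did not pass (0.74 ± 0.25, limma adjusted p = 0.0964), as did Mdm2 (0.50 ± 0.23, limma adjusted p = 0.229) and Cdkn1a (-0.21 ± 0.38, limma adjusted p = 0.814). The count of members called for BMP4 in TSC-origin cells was 1 without replicate 1 of assembled TSC or without replicate 1 of assembled TSC with BMP4, and 2 without replicate 2 of assembled TSC or without replicate 2 of TSC alone with BMP4. Without a filter Bcl2l11, Ccng1, Gadd45b and Trp53i11 did not pass, with quality weights Bcl2l11, Ccng1 and Gadd45b did not, and without both libraries that carry markers of the other lineage Bcl2l11, Ccng1 and Trp53i11 did not. Differentiated trophoblast markers had overlapping summed levels here, 520 to 2800 FPKM with BMP4 and 840.1 to 13770 FPKM without. Of 7 tested, 1 was lower (Plac1), and the same 6 genes were at 0 in every TSC-origin library. The Plac1 call was lost with a pseudocount of 0.1 (limma adjusted p = 0.132), no filter (0.079) or quality weights (0.0992). It was also lost without both libraries that carry markers of the other lineage (0.1105) and without any of several TSC-origin libraries (0.0645 to 0.112). Pluripotency and epiblast markers summed to 309.2 to 806.8 FPKM with BMP4 and 221.7 to 1233 FPKM without, with 3 of 12 higher (Sox2, Dnmt3b and Dppa4). The Sox2 and Dppa4 calls were lost with no filter (limma adjusted p = 0.0797 and 0.0543), and Sox2 also with quality weights (0.0676). Both were also lost without any of several TSC-origin libraries (up to 0.112 and 0.0775). The Dnmt3b call was lost without replicate 1 of assembled TSC (0.0512) or of assembled TSC with BMP4 (0.0567). Trophoblast stem and progenitor markers summed to 589.9 to 1742 FPKM with BMP4 and 1650 to 6280 FPKM without. Of these, 2 of 12 were higher (Eomes and Esrrb) and 3 lower (Krt8, Krt18 and Ets2). Krt8 and Krt18 averaged 240 and 434 FPKM with BMP4 and 1213 and 1537 FPKM without, so they weigh heavily in these sums too. The Esrrb and Ets2 calls were lost with no filter (limma adjusted p = 0.0681 and 0.0778). The part of all these markers in the differences was not tested.

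**Figure D5:**
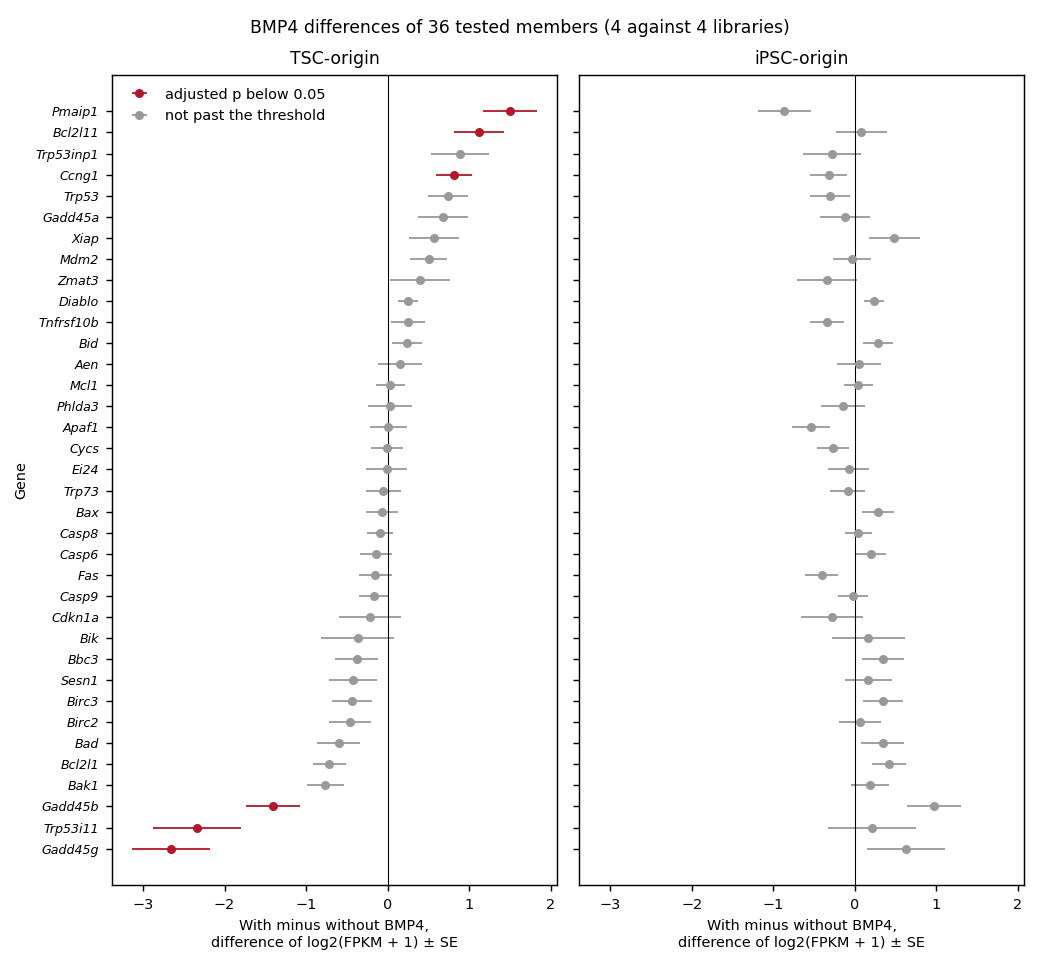
With minus without BMP4, as the difference of log2(FPKM + 1) with bars of 1 SE, for 36 tested genes in TSC-origin cells (left) and iPSC-origin cells (right), red where the adjusted p is below 0.05. Gadd45g (-2.65), Trp53i11 (-2.34) and Gadd45b (-1.41) lie lowest and Pmaip1 (1.5) highest in TSC-origin cells, and no gene is red in iPSC-origin cells.

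Other genes of the p53 pathway, from a list of 36 with 34 tested, were counted in the same fits. Between lineages 9 were higher and 7 lower in TSC-origin cells, near the background of 24.8% higher and 24% lower over all genes. In the assembled TSC part 2 were higher and 5 lower (6.97% and 10.6% of all genes), and with library quality weights 0 and 1. In the assembled iPSC part 1 was higher and 7 lower (5.95% and 20.6% of all genes), near that background, with 4 higher and 7 lower after quantile normalization and 4 higher and 6 lower after upper quartile rescaling. Sesn2, a stress-induced regulator of growth signalling, was lower in both parts, at 4.58 ± 1.32 FPKM in assembled TSC against 8.96 ± 2.69 FPKM in TSC alone, and 10.1 ± 4.43 FPKM in assembled iPSC against 25.4 ± 4.82 FPKM in iPSC alone (SD, n = 4 each; -0.83 ± 0.23 and -1.32 ± 0.23). Its call in the TSC part was lost without any of 5 libraries, at 0.0599 to 0.116 (replicate 1 of TSC alone, either replicate of assembled TSC, replicate 2 of TSC alone with BMP4 and replicate 1 of assembled TSC with BMP4). That call was also lost with no filter (limma adjusted p = 0.0508), with library quality weights (0.0647) and without both libraries that carry markers of the other lineage (0.0877). Fdxr, a mitochondrial reductase that p53 induces, averaged 2.14 ± 0.809 FPKM in assembled iPSC and 6.64 ± 2.70 FPKM in iPSC alone (-1.25 ± 0.22, limma adjusted p = 0.00209). The kinase Plk3 (1.34 ± 0.14) and the antiproliferative gene Btg2 (1.11 ± 0.17) were higher in TSC-origin than in iPSC-origin cells, and Sfn (14-3-3 sigma, -1.61 ± 0.37) was lower. Sfn was also lower in the TSC part, at 27.78 ± 35.75 FPKM in assembled TSC against 90.76 ± 70.41 FPKM in TSC alone (SD, n = 4 each). That difference was -2.45 ± 0.53 (limma adjusted p = 0.0092). With BMP4 in TSC-origin cells 2 of the 34 were higher and 3 lower (3.63% and 3.41% of all genes), with Perp, a junction and apoptosis effector, at 256 ± 97.4 FPKM against 79.0 ± 21.8 FPKM without (1.65 ± 0.26, limma adjusted p = 0.00313).

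Of 43 further apoptosis genes, 40 were in the table and 30 were tested. Between lineages 8 were higher and 7 lower in TSC-origin cells, near the background of 24.8% and 24%. Pycard, the inflammasome adaptor, averaged 0.616 ± 0.486 FPKM in TSC-origin and 9.03 ± 2.76 FPKM in iPSC-origin libraries (SD, n = 8 each; -2.63 ± 0.23, limma adjusted p = 1.97e-06), and Tnfrsf1a, the main receptor of tumour necrosis factor, averaged 24.1 ± 5.94 FPKM in TSC-origin and 8.74 ± 3.24 FPKM in iPSC-origin libraries (1.41 ± 0.13, limma adjusted p = 3.88e-06). In the iPSC part 2 were higher and 5 lower (5.95% and 20.6% of all genes), among them the DNA repair enzyme Parp1, at 21.6 ± 3.13 FPKM in assembled iPSC and 49.2 ± 1.55 FPKM in iPSC alone (SD, n = 4 each; -1.16 ± 0.16, limma adjusted p = 0.000678). In the TSC part 0 were higher and 4 lower with limma, against 6.97% and 10.6% of all genes. There 8 of the 30 had an unadjusted p under 0.05, against 4318 of all 13406 genes. For BMP4 0 passed with limma in either lineage, where 4 in TSC-origin and 2 in iPSC-origin cells had an unadjusted p under 0.05. Over all 13406 genes 2843 in TSC-origin and 1413 in iPSC-origin cells did. After quantile normalization 5 were higher and 3 lower in the iPSC part, and after upper quartile rescaling 4 were higher and 2 lower.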

How the data were processed

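Smart-seq2 libraries were deposited by the authors as 1 table of FPKM values with 16 columns, 2 for each of 8 groups. The submitters' processing notes list CASAVA, TopHat2, mm9 and hg19, without roles or versions. Which program and annotation gave FPKM is not stated there or in the labels, so how reads of paralogs or overlapping genes were shared out is unknown. Read totals are unknown, columns summed to 666077 to 947859 FPKM, and values carry no counting interval. From the steps between low values, the value of 1 fragment relative to replicate 1 of iPSC alone ranged from 0.69 to 2.39 over the other libraries.

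Values were taken as log2(FPKM + 1), a scale that understates the fold of low genes, without further scaling. A gene was tested where 2 or more libraries reached 1 FPKM (13406 of 31663 entries, 12 of which share a symbol). The 8 group means were fitted with the limma package (version 3.58.1, R 4.3.3, eBayes with trend) over 16 libraries, leaving 8 residual degrees of freedom. The 7 comparisons were TSC-origin minus iPSC-origin, assembled minus alone and with minus without BMP4 within each lineage, and the differences of the assembly and of the BMP4 effects between lineages. Tests were two-sided, adjusted by Benjamini-Hochberg over the genes of a comparison, with a threshold of 0.05. Alternatives were a replicate block, library quality weights, quantile normalization, upper quartile rescaling, testing without a filter and a pseudocount of 0.1. Further fits left out each library in turn, or replicate 2 of assembled TSC without BMP4 together with replicate 2 of assembled iPSC with BMP4. These are the libraries called above both libraries that carry markers of the other lineage. On simulated data for assembly in TSC-origin cells with independent noise, the fit recovered 38 of 67 genes with a 2-fold change, 61 of 67 with a 4-fold change and 65 of 66 with an 8-fold change. Of its 169 calls, 5 were wrong. The changed genes were drawn only from those with higher mean levels, and all other genes had no difference between groups. The recovery therefore does not cover members with low levels such as Casp8, Fas and Trp73.

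The members and the lists were chosen with earlier results of these data known. Trp53, Mdm2, Cdkn1a, Bax, Bcl2 and Mcl1 were named whatever their result, as were members past the threshold. Of further lists, up to 3 genes per direction past the threshold with a mean of at least 5 FPKM on 1 side were candidates for naming. Promoter windows came from RefSeq. Tables were made with pandas 2.3.3 and numpy 2.4.6 in Python 3.11.15, and plots with matplotlib 3.10.9. Of the further apoptosis genes, 1 is not reported here.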

Additional observations from a re-analysis of the deposited data

Results flagged for a closer look

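For 4 members an effect differed between the lineages by the test of the difference itself (limma, 16 libraries). For Bak1 the assembly difference in TSC-origin cells minus that in iPSC-origin cells was -1.38 on the log2 scale (limma adjusted p = 0.0374). The effect of BMP4 in TSC-origin cells minus that in iPSC-origin cells was 2.37 for Pmaip1 (limma adjusted p = 0.0194), -2.38 for Gadd45b (limma adjusted p = 0.019) and -3.28 for Gadd45g (limma adjusted p = 0.0252). The Bak1 call was lost without any of 12 libraries, at an adjusted p of up to 0.0943. That of Pmaip1 was lost without either replicate of iPSC alone, replicate 1 of assembled iPSC, replicate 2 of iPSC alone with BMP4 or replicate 1 of assembled TSC with BMP4, and that of Gadd45b without any of 3 libraries, each at up to 0.0593. That of Gadd45g was lost without either replicate of iPSC alone, replicate 2 of assembled iPSC, either replicate of assembled TSC, replicate 2 of iPSC alone with BMP4 or replicate 1 of TSC alone with BMP4, at up to 0.0684. No library brought the difference of these genes across 0 when left out.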

How the results depend on the processing

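Between lineages, 24 members passed, and 19 to 25 passed when single libraries were left out. For assembly in iPSC-origin cells the count was 9, and 5 to 11 when single libraries were left out. For assembly in TSC-origin cells it was 13, and 5 with no filter on low values, 6 with library quality weights and 5 without both libraries that carry markers of the other lineage; leaving out single libraries gave 4 to 14. For BMP4 in TSC-origin cells it was 6, and 2 with no filter, 3 with quality weights and 3 without both of those libraries; leaving out single libraries gave 1 to 7. For BMP4 in iPSC-origin cells it was 0 in every setting run. For the difference of the assembly effects it was 1, and 0 with a pseudocount of 0.1, with no filter and with the replicate block, and 0 to 2 on leaving out single libraries. For the difference of the BMP4 effects it was 3, and 0 with no filter, 5 after upper quartile rescaling and 0 to 7 on leaving out single libraries. With no filter more genes were tested; the cause of the other moves was not tested. In iPSC-origin cells the assembly median of all genes was -0.19 as deposited, -0.007 after quantile normalization and 0.04 after upper quartile rescaling. There the Cdkn1a difference, which did not pass in any of these, was 0.004 after upper quartile rescaling, against -0.33. Leaving out single libraries gave 1 to 7 of the further p53 pathway genes lower in the TSC part and 4 to 10 in the iPSC part, and 1 to 7 and 2 to 7 of the further apoptosis genes.

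Replicate numbers in the labels were checked for pairing. Over 28 pairs of groups, the correlation of same-numbered deviations was -0.185 to 0.119, over 0.1 in 2 pairs and under -0.1 in 4, and the labels do not say whether TSC and iPSC parts with the same number came from the same structure, so the numbers were not treated as pairs. A fit with the replicate block gave 0 members for the difference of the assembly effects and 4 for that of the BMP4 effects, and the other 5 counts stayed within 1.5 times their value.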

Other observations

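Of 12 cell cycle genes, all tested, 1 was higher and 5 lower in the assembled iPSC part than in iPSC alone (limma), against 5.95% and 20.6% of all genes; after quantile normalization and after upper quartile rescaling 1 was higher and 4 lower. The replication licensing gene Mcm2 averaged 41.2 ± 2.89 FPKM in assembled iPSC and 91.2 ± 10.0 FPKM in iPSC alone (SD, n = 4 each; -1.12 ± 0.19 SE on the log2 scale, limma adjusted p = 0.00148), and Mcm5 averaged 54.5 ± 13.7 FPKM in assembled iPSC and 119 ± 10.2 FPKM in iPSC alone (-1.14 ± 0.21). Pcna, the replication clamp, was higher in both assembled parts, at 347 ± 27.9 FPKM in assembled TSC and 249 ± 80.9 FPKM in TSC alone (0.53 ± 0.13, limma adjusted p = 0.0189), and 488 ± 62.2 FPKM in assembled iPSC and 333 ± 42.1 FPKM in iPSC alone (0.55 ± 0.13, limma adjusted p = 0.0106). The Pcna call in the TSC part was lost without replicate 1 of assembled TSC (0.0647), replicate 2 of TSC alone with BMP4 (0.0589) or replicate 2 of assembled TSC with BMP4 (0.0553). That in the iPSC part was lost without replicate 2 of assembled iPSC (0.0527) or replicate 1 of iPSC alone with BMP4 (0.0536).

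Of 15 stress response genes outside the p53 pathway, 14 were tested, and 1 was higher and 4 lower in the assembled TSC part than in TSC alone, against 6.97% and 10.6% of all genes. With no filter on low values or with library quality weights 1 was higher and 0 lower. Atf3, a stress-induced transcription factor, averaged 10.3 ± 9.52 FPKM in assembled TSC and 24.0 ± 19.6 FPKM in TSC alone (SD, n = 4 each; -1.19 ± 0.35, limma adjusted p = 0.0341), a call lost at 0.0523 to 0.131 without either replicate of TSC alone, replicate 1 of assembled TSC, replicate 2 of TSC alone with BMP4 or replicate 1 of assembled TSC with BMP4. It was also lower with BMP4 in TSC-origin cells, at 5.17 ± 3.25 FPKM with BMP4 and 29.0 ± 14.4 FPKM without (-2.31 ± 0.35, limma adjusted p = 0.00246). Asns, the asparagine synthetase, was higher with BMP4 in TSC-origin cells, at 205.6 ± 68.1 FPKM with BMP4 and 89.9 ± 55.3 FPKM without (1.36 ± 0.21, limma adjusted p = 0.00313).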
